A study of Mus musculus with 9 samples.

Results

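The genes described here encode ligands of vascular endothelial growth factor (VEGF) signalling, Vegfa, Vegfb, Vegfc and Pgf, and receptors and co-receptors that bind them, Flt1, Kdr, Flt4, Nrp1 and Nrp2. They are not the whole family of ligands. They were chosen by name, and all 9 were measured, each by 1 probe set annotated to that gene alone, among 18820 genes on the array. RNA came from the right ventricle of 9 female C57BL/6 mice, 3 per group, each a separate animal that arrived at 8 weeks of age. The MCT+NI mice received monocrotaline (MCT), a plant toxin that injures the vessels of the lung and is used to raise pressure in the pulmonary arteries, at 600 mg/kg by weekly subcutaneous injection during 8 weeks from 10 weeks of age. They ate an isocaloric diet enriched in protein, leucine, oligosaccharides and fish oil (the nutritional intervention, NI). The MCT mice received the same injections on the standard semi-synthetic diet, and the sham mice received saline on that standard diet. All groups started their diet before the first injection, 2 weeks before it by the labels and 1 week by the methods. The paper's supplement reports that the MCT+NI mice of the study had eaten less in total than the MCT and the sham mice. No sham mice on the enriched diet were among the samples, so the diet was compared only within animals given MCT. According to the methods, the mice put on arrays had been matched for disease severity.

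VEGF-A binds the receptor tyrosine kinases FLT1 (VEGFR1) and KDR (VEGFR2) on endothelial cells. KDR carries most of the mitogenic and permeability signal, whereas FLT1 binds VEGF-A tightly with weak kinase activity and, as a soluble form, acts as a decoy. PGF and VEGF-B bind FLT1 and not KDR. VEGF-C acts on FLT4 (VEGFR3), the main receptor of lymphatic vessels, which sprouting blood vessels also carry. Neuropilins 1 and 2 are co-receptors that bind VEGF ligands and class 3 semaphorins. In the heart, cardiomyocytes are a main source of VEGF-A and VEGF-B, and the receptors are found mainly on the dense capillary bed.

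The sequences before the transcription starts of Flt1, Kdr and Nrp2 are shown because these receptors moved in opposite directions or by the largest amount (values follow). The 250 bases before the RefSeq start (mouse build GRCm38.p6) were searched on both strands for GGGCGG (the GC box bound by SP1-type factors), AGGAAG (a core bound by ETS factors), ACGTG (the core of the hypoxia response element) and TATAAA (the TATA box). Matches are in capitals. Flt1 lies on the minus strand at chr5:147726012-147726261, Kdr on the minus strand at chr5:75978456-75978705 and Nrp2 on the plus strand at chr1:62703067-62703316.
Flt1: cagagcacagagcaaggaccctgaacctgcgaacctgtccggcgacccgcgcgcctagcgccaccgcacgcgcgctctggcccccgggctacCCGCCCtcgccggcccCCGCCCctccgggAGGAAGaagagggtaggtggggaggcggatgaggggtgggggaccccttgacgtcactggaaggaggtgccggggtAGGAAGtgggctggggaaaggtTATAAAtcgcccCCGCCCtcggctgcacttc
Kdr: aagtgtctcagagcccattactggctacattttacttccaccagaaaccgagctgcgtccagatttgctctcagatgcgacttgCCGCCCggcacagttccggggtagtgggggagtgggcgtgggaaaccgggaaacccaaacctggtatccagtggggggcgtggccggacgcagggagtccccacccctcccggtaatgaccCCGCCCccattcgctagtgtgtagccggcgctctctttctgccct
Nrp2: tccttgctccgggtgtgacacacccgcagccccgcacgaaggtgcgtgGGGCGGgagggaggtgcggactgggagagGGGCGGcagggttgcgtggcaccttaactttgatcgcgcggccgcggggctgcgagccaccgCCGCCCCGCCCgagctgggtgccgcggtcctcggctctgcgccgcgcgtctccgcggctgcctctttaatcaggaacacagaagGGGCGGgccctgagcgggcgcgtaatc
The stretch before Flt1 held 3 GC boxes, 2 ETS cores and 1 TATA box, that before Kdr held 2 GC boxes, and that before Nrp2 held 5, of which 2 overlap. Flt1 was the only member with the TATA letters, which 13.0% of 27025 promoters held. All 9 members had at least 1 GC box, against 33.0% of all promoters. The members' windows were 59.2% to 76.4% G and C, against a median of 52.0%, and among the 7974 promoters at or above 59.2%, a GC box was found in 75.6%. An ETS core was found in 2 of 9 members (Flt1 and Nrp1), against 29.2% of all promoters. ACGTG was found in 0 of 9 members, against 16.5% of all promoters. These matches describe the letters in this window and were not tested as binding sites. For Vegfa and Pgf, which have 2 starts listed, the outermost start was used.

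All values are log2 expression levels as deposited after robust multi-array averaging. Such levels can be compared between mice for 1 gene and not between genes. The array medians lay between 4.77 and 4.79. The samples differed in a way the labels do not give. The mean of 12 markers of atrial muscle was 9.30 in MCT mouse 644, against 5.65 and 6.00 in MCT mice 640 and 641. It was 8.23 in MCT+NI mouse 615, against 6.42 and 5.90 in MCT+NI mice 617 and 619, and 8.93 to 9.59 in the sham mice. None of the 12 was lower or higher in MCT than in sham mice past an adjusted p under 0.05. Of the 12, however, 11 had a negative difference, with a median of -2.005, and 9 had an unadjusted limma p under 0.05. Over all genes, 3714 of 18820 had such a p. Between MCT+NI and sham mice, the groups did not overlap for 10 of the 12, against 21% of all genes. Only Kcna5 passed there, and it was higher (1.55-fold). The mean of 11 cardiomyocyte markers ranged only between 12.00 and 12.09 over the 9 mice. Values by mouse are given below in the order 640, 641 and 644 (MCT), 615, 617 and 619 (MCT+NI) and 620, 624 and 625 (sham).

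Between MCT and sham mice, 4 of the 9 members were higher (Nrp2, Pgf, Flt4 and Nrp1) and 1 was lower (Flt1) at an adjusted p under 0.05 (limma, Benjamini-Hochberg over 18820 genes). Over all genes tested, 4.65% were called higher and 1.61% lower. The values of the groups did not overlap for 7 of 9 members, against 21.9% of all genes. Between MCT+NI and sham mice, 5 members were higher (the same 4 and Kdr) and Flt1 was lower, where 4.52% and 1.75% of all genes were called. Here too 7 of 9 members did not overlap, against 21% of all genes. These comparisons share the sham arrays. With the mean of 5 atrial markers as a covariate, 2 members were called higher in place of 4 between MCT and sham mice and 2 in place of 5 between MCT+NI and sham mice, while Flt1 stayed lower in both. This covariate was 5.46, 5.86 and 10.58 in MCT mice, 9.27, 6.13 and 5.61 in MCT+NI mice and 10.01, 10.87 and 10.74 in sham mice. It thus partly follows the groups, so a lost call can reflect a wider SE as well as a smaller difference. In bulk tissue, more cells of a type and more RNA per cell cannot be told apart.

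**Figure D1:**
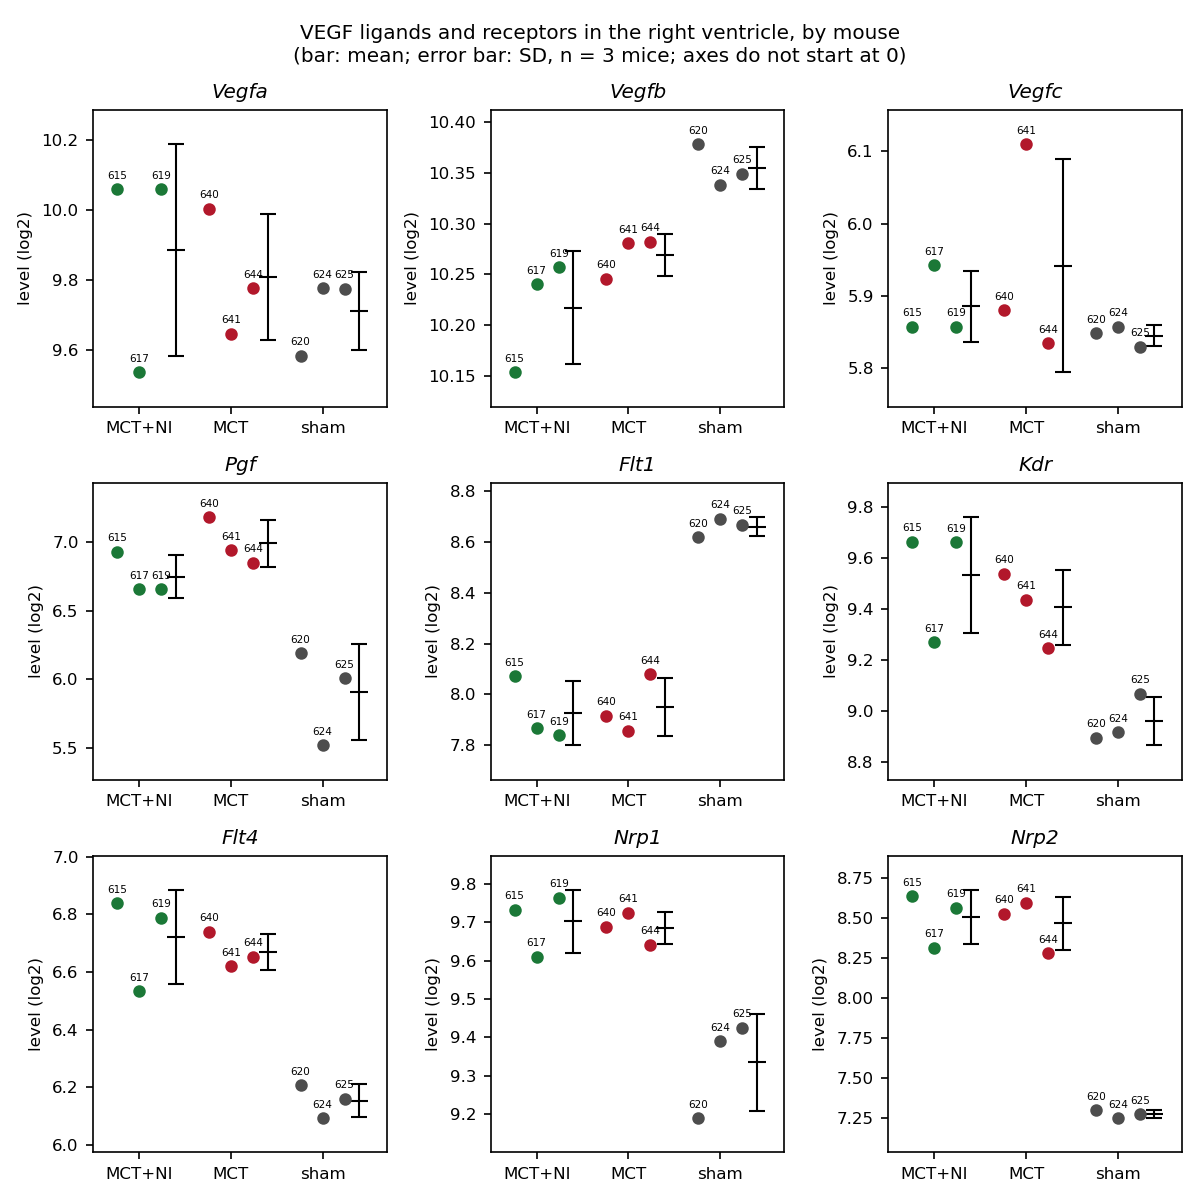
Level (log2, vertical axis) of each of the 9 genes in each mouse, with groups on the horizontal axis, mouse numbers above the points, and the mean with SD (n = 3 mice) to the right of the points. Nrp2, Pgf, Flt4, Nrp1 and Kdr lie higher and Flt1 lower in all 6 mice given MCT than in any sham mouse, while Vegfa and Vegfc overlap.

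Among the ligands described here, the placental growth factor gene Pgf rose, and Vegfa, Vegfb and Vegfc did not pass the test. Pgf was 7.18, 6.94 and 6.85 in MCT mice, 6.93, 6.66 and 6.66 in MCT+NI mice and 6.19, 5.52 and 6.01 in sham mice. Every mouse given MCT lay above every sham mouse, and the spread was widest among sham mice (SD 0.35). Pgf was 2.12-fold higher in MCT than in sham mice (log2 difference 1.09, SE 0.17, limma adjusted p = 0.00581) and 1.80-fold higher in MCT+NI than in sham mice (0.84, adjusted p = 0.0197). Over 20 alternatives the difference from sham mice was 0.68 at the lowest for MCT and 0.39 at the lowest for MCT+NI mice. With the atrial covariate neither call passed, the limma adjusted p for MCT being 0.0548. The MCT+NI call was lost in 5 of 20 alternatives, which also included the fit of those 2 groups alone and the fits without mouse 615, without mouse 619 and without mice 644 and 615, the highest adjusted p over the alternatives being 0.166.

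Vegfa, the central ligand of the pathway, was 10.00, 9.65 and 9.78 in MCT mice, 10.06, 9.53 and 10.06 in MCT+NI mice and 9.58, 9.78 and 9.77 in sham mice. The groups overlapped, and the MCT+NI mice spread most, with mouse 617 below all the others. The difference was 0.10 between MCT and sham mice (95% confidence interval -0.23 to 0.43, limma adjusted p = 0.768) and 0.17 between MCT+NI and sham mice (-0.16 to 0.50, adjusted p = 0.577). These intervals reach past the size of the Nrp1 difference and exclude one the size of that in Pgf or Nrp2. Vegfb, which binds FLT1, was 10.25, 10.28 and 10.28 in MCT mice, 10.15, 10.24 and 10.26 in MCT+NI mice and 10.38, 10.34 and 10.35 in sham mice. All 6 mice given MCT lay below the sham mice, by little: the differences were -0.09 for MCT (adjusted p = 0.218) and -0.14 for MCT+NI against sham mice (adjusted p = 0.0526), and neither passed. Vegfc, a ligand of FLT4, was 5.88, 6.11 and 5.83 in MCT mice, 5.86, 5.94 and 5.86 in MCT+NI mice and 5.85, 5.86 and 5.83 in sham mice. Its groups overlapped, and the differences from sham mice were 0.10 for MCT and 0.04 for MCT+NI mice (adjusted p = 0.55 and 0.824). The table gives no detection calls, so whether Vegfc was above background is not known here.

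The tyrosine kinase receptors split. Flt1 was 7.92, 7.86 and 8.08 in MCT mice, 8.07, 7.87 and 7.84 in MCT+NI mice and 8.62, 8.69 and 8.67 in sham mice. The highest mouse given MCT, at 8.08, lay below the lowest sham mouse, at 8.62. Flt1 fell to 0.612-fold of the sham level in MCT mice (log2 difference -0.71, SE 0.08, limma adjusted p = 0.000822) and to 0.601-fold in MCT+NI mice (-0.73, adjusted p = 0.000761). The call held in all 20 alternatives of the processing in both comparisons. Whether its probe set reads the membrane-bound transcript, the soluble one or both was not analysed here.

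Kdr, the main signalling receptor for VEGF-A, was 9.54, 9.44 and 9.25 in MCT mice, 9.67, 9.27 and 9.66 in MCT+NI mice and 8.89, 8.92 and 9.07 in sham mice. All 6 mice given MCT lay above the sham mice, with mouse 644 the lowest of the MCT mice and mouse 617 the lowest of the MCT+NI mice. The difference was 0.45 between MCT and sham mice (95% confidence interval 0.19 to 0.71, limma adjusted p = 0.0564), which did not pass, and it passed in 5 of 20 alternatives, among them the fit without mouse 644. In MCT+NI mice Kdr was 1.49-fold higher than in sham mice (0.57, adjusted p = 0.0205). That call was lost with the atrial covariate and without mouse 615, 619, 620 or 624, and in 8 of 20 alternatives in all. Whether Kdr differed between the 2 comparisons is answered by MCT+NI against MCT mice, where the difference was 0.13 (-0.14 to 0.39).

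Flt4, the receptor for VEGF-C, was 6.74, 6.62 and 6.65 in MCT mice, 6.84, 6.53 and 6.79 in MCT+NI mice and 6.21, 6.09 and 6.16 in sham mice, with no overlap. It was 1.43-fold higher in MCT (0.52, SE 0.08, limma adjusted p = 0.00717) and 1.48-fold higher in MCT+NI than in sham mice (0.57, adjusted p = 0.00463). Of 10 lymphatic markers measured, only Flt4 itself and Itga9, an integrin subunit, were higher in MCT mice, where 4.65% of all genes were. Among defining lymphatic genes, the differences were -0.13 for Prox1, 0.10 for Lyve1 and 0.33 for Pdpn (limma adjusted p = 0.546, 0.811 and 0.0752), and the groups did not overlap for Pdpn. In all, 3 of the 10 did not overlap, against 21.9% of all genes.

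The difference Kdr minus Flt1 within a mouse was 1.62, 1.58 and 1.17 in MCT mice, 1.59, 1.40 and 1.82 in MCT+NI mice and 0.27, 0.22 and 0.40 in sham mice. Only its shift between groups can be read, since levels of 2 probe sets are not on 1 scale. The shift was 1.16 for MCT and 1.31 for MCT+NI against sham mice. The pair was chosen with the values of both genes known, so the shift is a description with no test.

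**Figure D2:**
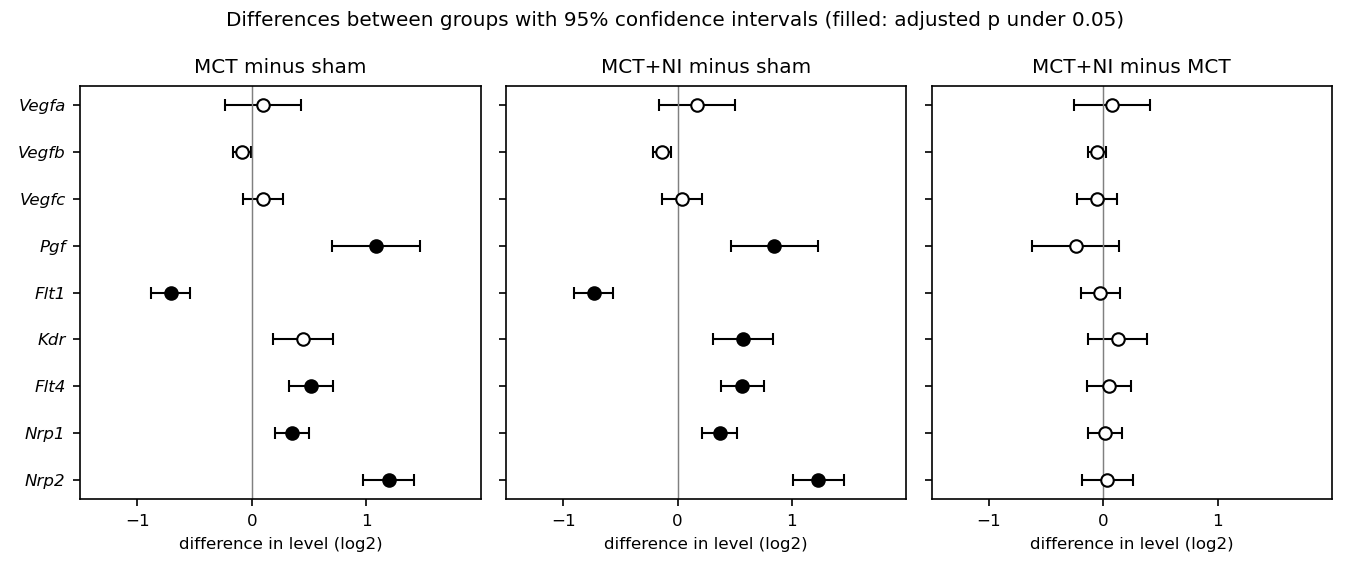
Difference in level (log2, horizontal axis) for each of the 9 genes in the 3 comparisons, with 95% confidence intervals and filled points for an adjusted p under 0.05. Nrp2 and Pgf lie furthest to the right and Flt1 furthest to the left against sham mice, and every interval of MCT+NI minus MCT includes 0.

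Both neuropilins rose. Nrp2 was 8.53, 8.59 and 8.28 in MCT mice, 8.63, 8.31 and 8.56 in MCT+NI mice and 7.30, 7.25 and 7.27 in sham mice. The sham mice lay within 0.05 of each other, and the lowest mouse given MCT, 644 at 8.28, lay above them all. Nrp2 had the largest difference among the members, 2.29-fold in MCT (1.20, SE 0.10, limma adjusted p = 0.000262) and 2.35-fold in MCT+NI against sham mice (1.23, adjusted p = 0.00024). It passed in all 20 alternatives in both comparisons. Nrp1 was 9.69, 9.73 and 9.64 in MCT mice, 9.73, 9.61 and 9.76 in MCT+NI mice and 9.19, 9.39 and 9.43 in sham mice. The groups did not overlap, but the gap to the highest sham mouse was small. Nrp1 was 1.28-fold higher in MCT (0.35, SE 0.07, limma adjusted p = 0.0154) and 1.29-fold higher in MCT+NI than in sham mice (0.37, adjusted p = 0.0127). Both calls were lost with the atrial covariate, without mice 644 and 615 and after the subtraction of endothelial markers described below. The MCT call was also lost without mouse 640 or 641, and the MCT+NI call without mouse 615 or 619 and in the fit of those 2 groups alone. Nrp2 minus Nrp1 was -1.16, -1.13 and -1.36 in MCT mice, -1.10, -1.30 and -1.20 in MCT+NI mice and -1.89, -2.14 and -2.15 in sham mice, a shift of 0.84 for MCT against sham mice, likewise a description.

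The nutritional intervention was compared with MCT alone to ask whether diet altered these genes. Of the 9 members, 0 passed between MCT+NI and MCT mice, 0 had an unadjusted p under 0.05, where 2.9% of all genes did, and 0 had groups without overlap, against 6.08% of all genes. Over all genes, 0% were called higher and 0% lower, the smallest adjusted p being 1. The largest differences were those of Pgf at -0.24 (95% confidence interval -0.62 to 0.14) and Kdr at 0.13. Nrp2 differed by 0.04 (-0.19 to 0.26), Flt1 by -0.02 (-0.20 to 0.15), Flt4 by 0.05 (-0.14 to 0.24), Nrp1 by 0.02 (-0.13 to 0.17), Vegfa by 0.08 (-0.26 to 0.41), Vegfb by -0.05 (-0.13 to 0.03) and Vegfc by -0.06 (-0.23 to 0.12). For Nrp2 and Flt1, these intervals lie well inside the differences of 1.20 and -0.71 between MCT and sham mice, whereas that of Pgf reaches -0.62 beside its difference of 1.09. Within the MCT+NI group mouse 617 was the lowest in 6 members (Vegfa, Pgf, Kdr, Flt4, Nrp1 and Nrp2, tied in Pgf with mouse 619), and mouse 615 the highest in 6. Mouse 615 was also the highest of its group in atrial markers (mean 8.23) and mouse 619 the lowest (5.90). Leaving out either mouse lost the calls of Pgf, Kdr and Nrp1 for MCT+NI against sham mice. Those of Nrp2, Flt4 and Flt1 held without either.

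Markers of endothelial cells in general were set beside the members. The mean of 20 pan-endothelial markers was 8.11, 8.17 and 8.02 in MCT mice, 8.18, 8.10 and 8.14 in MCT+NI mice and 7.63, 7.67 and 7.77 in sham mice, and 10 of the 20 were higher in MCT than in sham mice with 0 lower, led by Sox18, Icam2 and Robo4. The other 10 did not pass, and 5 of the 20 had a negative difference, among them the angiopoietin receptor gene Tek at -0.47 (limma adjusted p = 0.0935). Between MCT+NI and sham mice, 12 were higher and Tek was lower (0.653-fold, adjusted p = 0.0348). After subtraction of this mean in each mouse, Nrp2 remained 0.79 (SE 0.08) and Pgf 0.68 (SE 0.16) above sham in MCT mice, and Flt1 lay at -1.12 (SE 0.10). Kdr at 0.04 (SE 0.09), Flt4 at 0.11 (SE 0.09) and Nrp1 at -0.06 (SE 0.06) then differed by little from sham mice, with limma adjusted p of 0.709, 0.299 and 0.386. Vegfa, Vegfb and Vegfc took values of -0.31, -0.50 and -0.31. After this subtraction the median difference of all genes was -0.43, against -0.02 before it, so that 81.2% of all genes were called lower and 2.15% higher, and only Nrp2 and Pgf among the members were called higher. The capillary list went the other way in part: of 12 markers, 2 were higher and 5 lower in MCT mice. The higher ones were Meox2 at 1.73-fold and Gpihbp1 at 1.57-fold of sham. Among the lower ones were Car4, a carbonic anhydrase, at 0.246-fold, Timp4 at 0.193-fold, Rgcc at 0.699-fold and the water channel Aqp1 at 0.332-fold. Other lists moved as well, with 7 of 12 pericyte and smooth muscle markers, 5 of 12 fibroblast and 4 of 12 macrophage markers higher in MCT mice and 1 macrophage marker, Cd163, lower at 0.435-fold. Over all genes as deposited, 4.65% were called higher and 1.61% lower in MCT than in sham mice. None of 9 endocardial markers passed between MCT and sham mice, but 8 had an unadjusted limma p under 0.05, against 3714 of 18820 genes. The median difference of the 9 was -0.99. The mean of these 9 was 6.02, 6.13 and 7.06 in MCT mice, 6.53, 5.83 and 5.94 in MCT+NI mice and 6.68, 7.22 and 7.30 in sham mice, so that mouse 644 again lay among the sham mice. Their part in the members' values was not tested.

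**Figure D3:**
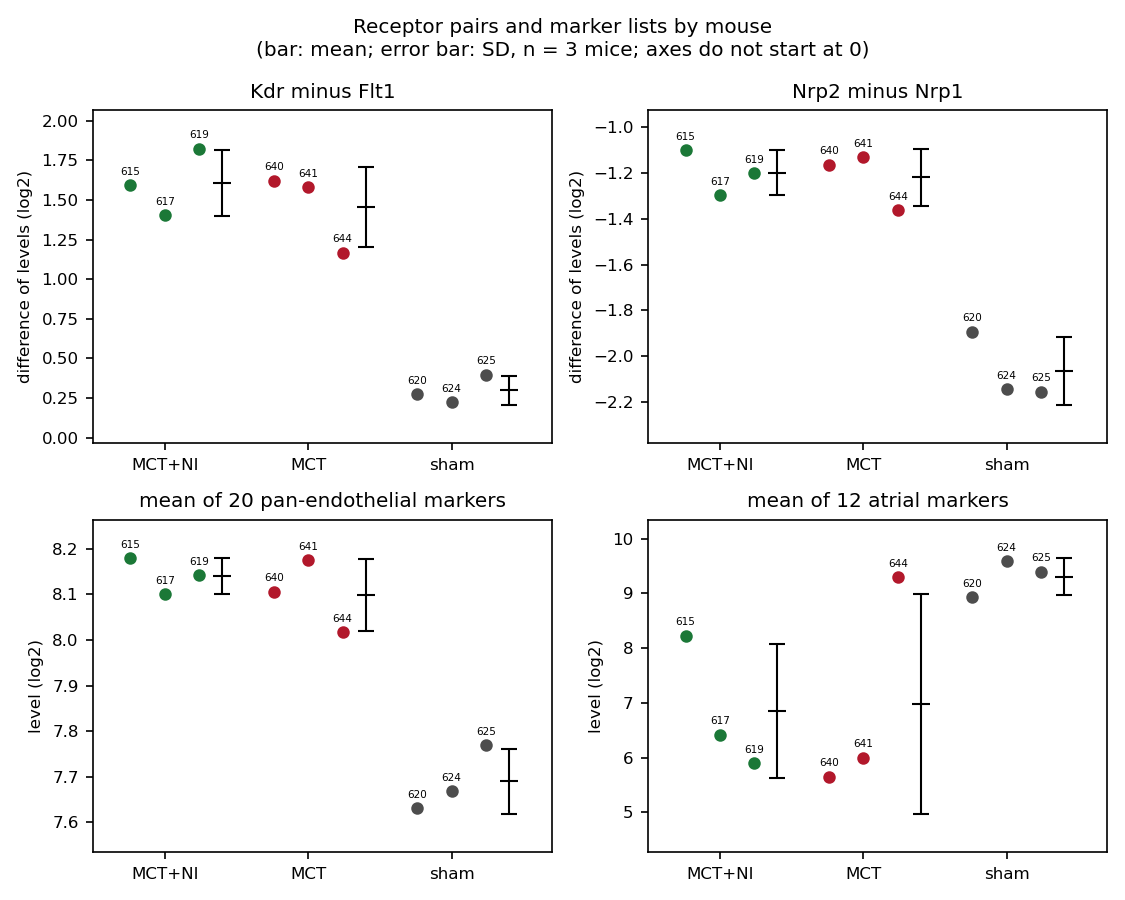
Kdr minus Flt1 and Nrp2 minus Nrp1 within each mouse (difference of log2 levels), and mean levels (log2) of 20 pan-endothelial and 12 atrial markers, with groups on the horizontal axis and mean with SD (n = 3 mice). Both pairs and the endothelial markers separate mice given MCT from sham mice, whereas MCT mouse 644 sits among the sham mice in atrial markers at 9.30.

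**Figure D4:**
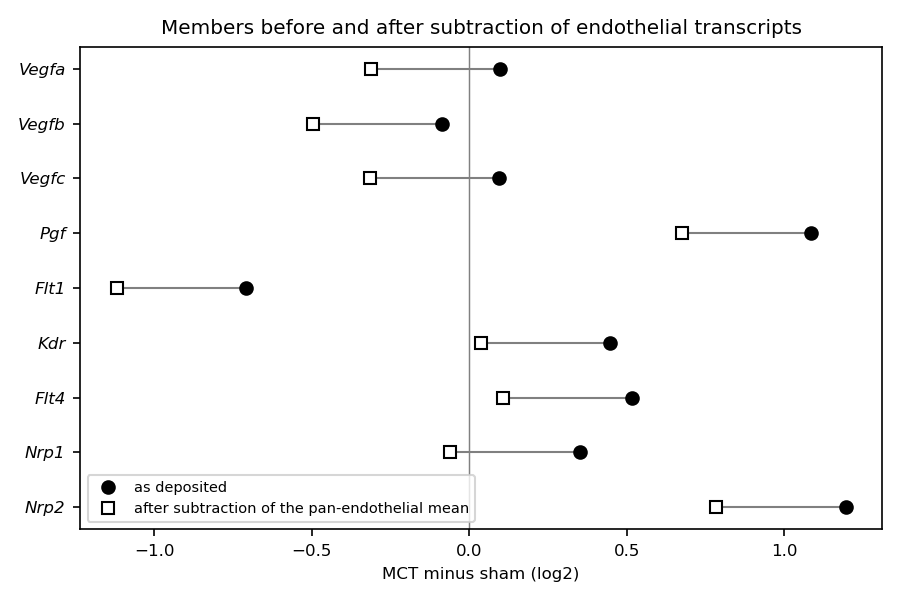
MCT minus sham difference (log2, horizontal axis) of each member as deposited (filled circles) and after subtraction of the pan-endothelial mean of each mouse (open squares). Every member shifts by the same 0.41, which leaves Kdr, Flt4 and Nrp1 near 0 and Nrp2, Pgf and Flt1 away from it.

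Genes around the ligands and receptors were counted in 6 lists. Joined, they hold 115 measured genes, of which 23 were higher and 1 was lower when MCT was set against sham (over all genes, 4.65% were higher and 1.61% lower), with a median difference of 0.08 against -0.02 over all genes. Against sham, MCT+NI mice had 21 higher and 3 lower. Of 21 genes that VEGF induces in cultured endothelial cells, 7 were higher in MCT mice and 0 lower. The apelin gene Apln was 12.9-fold higher (limma adjusted p = 7.08e-06), Angpt2, a ligand of the TIE2 receptor, 2.41-fold and Esm1, a proteoglycan of sprouting tip cells, 4.46-fold. Of 14 other proteins of the VEGF system, 4 were higher: Esm1, the caveolar coat protein gene Cav1 at 1.47-fold, the perlecan gene Hspg2 at 1.81-fold and the protease Adamts1 at 1.41-fold. Of 36 signalling genes downstream of the receptors, 3 were higher and 0 lower, against 4.65% and 1.61% of all genes. The 3 were the kinases Fyn and Prkd2 at 1.56-fold and 1.53-fold and the adhesion adaptor Pxn at 1.28-fold. The groups did not overlap for 15 of the 36, against 21.9% of all genes.

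Class 3 semaphorins and plexins share the neuropilins with VEGF. In MCT mice, 3 of 12 measured were higher than in sham mice and 0 lower, against 4.65% and 1.61% of all genes. Sema3f, a class 3 semaphorin that binds NRP2, was 2.57-fold higher (limma adjusted p = 0.000203), Plxnd1 was 2.06-fold and Plxna2 1.34-fold higher. Other semaphorins of this class in the list did not pass, Sema3a and Sema3e among them. The log2 difference was 0.24 for Sema3c, -0.09 for Sema3g and -0.04 for Sema3b. Of 14 regulators of Vegfa transcription, Stat3 and Egln3, an oxygen-sensing hydroxylase, were higher at 1.36-fold and 1.40-fold, and the nuclear receptor Esrrb was lower at 0.830-fold. Egln3 passed narrowly (limma adjusted p = 0.0477). It was the only gene of this list called in MCT+NI against sham mice. In MCT mice Hif1a gave 1.16-fold with a limma adjusted p of 0.145, and Epas1 0.893-fold with one of 0.153. Of the 14 regulators, 9 had a negative difference between MCT and sham mice, and the median was -0.07. Of 23 other angiogenic ligands and receptors, 7 were higher. These again include Apln and Angpt2, already counted among the genes that VEGF induces, and also Pdgfb at 1.88-fold and its receptor Pdgfrb at 1.39-fold. Between MCT+NI and MCT mice 0 of the 115 genes passed. An unadjusted limma p under 0.05 was found for 4 of the 115, where 2.9% of all genes had one. The log2 differences of those 4 were -0.27 for Adamts1, -0.34 for Dusp5, -0.44 for Angpt1 and -0.10 for Akt1.

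**Figure D5:**
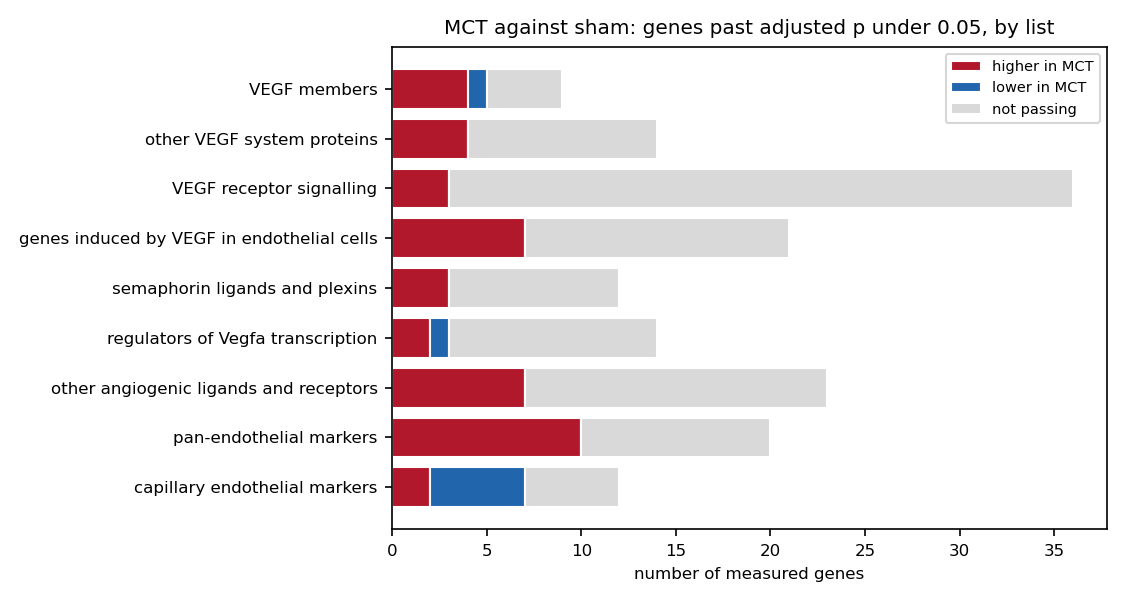
Number of measured genes (horizontal axis) in each list that were higher, lower or not passing between MCT and sham mice at an adjusted p under 0.05. Of the 36 receptor signalling genes 3 are coloured, against 7 of the 21 genes that VEGF induces. The capillary list has 5 of 12 genes lower and 2 higher.

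The genes whose levels followed each member called between MCT and sham mice most closely over the 9 mice were found among 2554 genes of at least median level and a range of at least 0.5. These mice fall into groups that differ, so the correlations mostly repeat the group differences. Flt1 was matched best by Dock9, an activator of the small GTPase CDC42 (r = 0.99), by the aryl hydrocarbon receptor gene Ahr (0.99) and by Car4 (0.98). Nrp2 was matched by the transcription factor gene Tcf4, Lrrc8c and the non-muscle myosin gene Myh9 (r = 0.998, 0.997 and 0.996). Pgf was matched by the collagen gene Col1a2 (0.98), Gas7 and Poglut1 (each 0.97). Flt4 was matched by Mlkl, Sipa1 and Rflnb (each 0.99), and Nrp1 by Rps6ka3, the endothelial adhesion gene Pecam1 and Parva (0.99, 0.98 and 0.98). Among the members, Nrp2 and Flt4 had r = 0.97 and Nrp2 and Flt1 r = -0.96, whereas Vegfa and Flt1 had r = -0.26, over 9 mice each.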

How the data were processed

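RNA of the right ventricle of 9 mice was hybridised to Affymetrix mouse gene 1.1 ST arrays, 1 per mouse. The authors summarised the scans by robust multi-array averaging (RMA) and deposited log2 values; versions are not given in the sources used here. The deposited rows are 35556 manufacturer probe sets, not the remapped sets named in the methods. Of these, 21218 were annotated to 1 gene, 1881 to several and 12457 to none, and only the first were used, the brightest standing for a gene. Promoter sequences are from RefSeq.

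Group means were fitted jointly with limma 3.58.1 (R 4.3.3; empirical Bayes with an intensity trend). P-values are two-sided, with Benjamini-Hochberg adjustment over all 18820 genes. On simulated data for MCT against sham mice over 18820 genes, it recovered 53% of differences of 0.5 and 90% of differences of 1 on the log2 scale. Each member is given by mouse; from each list, genes past the threshold with the smallest p were named, and other genes named were chosen after their values were seen. Members and lists were chosen with earlier results of these data known. Alternatives were the fit settings, probe set rules, a level filter, renormalization, an atrial covariate, subtraction of the endothelial mean and leaving out each mouse; the fit without mice 644 and 615 was chosen after the data were seen. Of 123 genes in the joined pathway lists, 8 are not analysed here.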

Additional observations from a re-analysis of the deposited data

How the results depend on the processing

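Over 20 alternatives, Nrp2 and Flt1 kept their calls and directions against sham mice. For MCT against sham mice, the 4 members called higher became 2 with the atrial covariate and 2 after subtraction of the pan-endothelial mean, which also made 4 lower in place of 1. For MCT+NI against sham mice, the 5 called higher became 2 in a fit of those 2 groups alone, with the atrial covariate, after the subtraction, and without mice 644 and 615, and 2 to 5 when 1 mouse was left out (2 without mouse 615 or 619). The 1 called lower became 2 among genes at or above the median level and 3 after the subtraction. The subtraction turned the sign of Vegfa to -0.31, Vegfc to -0.31 and Nrp1 to -0.0596 for MCT, and of Vegfc to -0.41 and Nrp1 to -0.0834 for MCT+NI, both against sham mice. It also turned Pxn to -0.055 and -0.13 and Akt1 to -0.29 and -0.43 for MCT and MCT+NI against sham mice, and Plxna1 to -0.0879 for MCT+NI. The subtraction lowers every gene by the same amount. Of the 115 pathway genes, 12 in place of 23 were higher in MCT than in sham mice with the atrial covariate and 14 after the subtraction, with 69 lower in place of 1. Members' differences between MCT+NI and MCT mice passed in 0 of 180 refits, of which 19 had the other sign. With 3 mice per group and levels that many genes share exactly between mice (12042 of 18820 genes), small differences cannot be resolved, and signal over background is not known from the table.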
